A study of Mus musculus with 4 samples.

Results

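The 10 genes described here, Tmem119, Selplg, Lpcat2, Olfml3, Fcrls, Sparc, Crybb1, Siglech, Ltc4s and Golm1, are surface, secreted and enzyme markers by which resident microglia are recognised. They were taken by gene name from the deposited expression table, which holds 21044 genes, and each matched 1 row with read counts in all 4 libraries and passed the filter on low counts. Gene expression was measured by RNA-seq of total RNA in microglia isolated from the corpus callosum, the large white matter tract between the hemispheres, of mouse pups at postnatal day 7. The WT group is 2 libraries of Lag3 fl/fl mice, whose Lag3 gene carries loxP sites, with the genotype label wt. The cKO group is 2 libraries of Lag3cKO-Cx3 mice, with the label ko, which lack Lag3, the gene of an inhibitory receptor of immune cells, conditionally. The labels do not spell out the Cx3 of that name or the cells in which the deletion acts. Strain, sex, the number of animals behind a library and the way the cells were isolated are not given in the sources used here. The spread behind each p-value is that between these libraries, and it may be technical.

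Microglia are the macrophages of the brain parenchyma, and their identity is held by signals from the surrounding tissue. Genes such as Tmem119, Siglech and Fcrls separate them from blood monocytes and most other macrophages, and Tmem119 in particular is known to be low in early microglia and to rise as they mature after birth. The set spans a transmembrane protein (Tmem119), a selectin ligand (Selplg, PSGL-1), a sialic acid-binding lectin (Siglech), an Fc receptor-like scavenger molecule (Fcrls), secreted proteins (Olfml3, Sparc), 2 lipid enzymes (Lpcat2, Ltc4s), a Golgi membrane protein (Golm1) and a lens-type crystallin (Crybb1).

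Total counts were 14645187 to 16770162 per library. Lag3 had 6064 and 10007 counts in the WT libraries against 595 and 257 in the cKO libraries, and its fitted log2 fold change was -4.35 (standard error 0.52), in the direction of the labels. Even Lag3 did not pass edgeR's quasi-likelihood test (adjusted p = 0.9997), while DESeq2 gave it an adjusted p = 1.46e-20. The second cKO library stood apart, with a correlation of log2(CPM + 1) across genes of 0.899 to 0.909 with the other libraries, against 0.95 to 0.967 among those. It also had 290.4 CPM of Xist and no count of the Y-linked Ddx3y, whereas Ddx3y was at 89.1 to 106.9 CPM in the other 3 libraries, where Xist was at 0 to 6.97 CPM. CPM here means counts scaled to the library size with edgeR's TMM factors. In that library sex and genotype cannot be told apart. Values without it are given beside some of the results, and genes whose sign changed without it are named at the end. Border-associated macrophages of the meninges and vessels are close relatives of microglia. Their 10 markers, all with counts, summed to 513 and 561 CPM in WT and to 542 and 561 CPM in cKO. Of these markers 7 were fitted higher and 3 lower in cKO, where 48.2% of all genes were fitted higher. Both cKO libraries lay above both WT libraries for 2 and below for 0, against 15.8% and 20.0% of all genes. With cKO replicate 1 alone, 7 lay above and 1 below, against 36.04% and 36.96%. Cd163 was at 0 in cKO replicate 2. The part of these cells in the members' values was not tested.

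Promoter sequences from RefSeq (GRCm38.p6), from 250 bases before to 50 after the RefSeq start, were matched by symbol for 8 of the 10 genes. Tmem119 and Selplg were the others. The RefSeq start can lie inside the gene bounds given below. The Sparc window, chr11:55420031-55420330, lies wholly within the bounds of Sparc. Shown are Lpcat2 and Crybb1, which lay higher in both cKO libraries, and Fcrls and Siglech, whose groups overlapped. Capitals mark matches, on either strand, to the motif GAGGAA, whose letters are bound by ETS factors such as PU.1, to the motif GGAAGT, another ETS core that can overlap with it, to the GC box GGGCGG and to the core promoter motif TATAAA. The regions are chr8:92855083-92855382 on the plus strand for Lpcat2, chr5:112255570-112255869 on the plus strand for Crybb1, chr3:87263475-87263774 on the minus strand for Fcrls and chr7:55767934-55768233 on the plus strand for Siglech.
Lpcat2: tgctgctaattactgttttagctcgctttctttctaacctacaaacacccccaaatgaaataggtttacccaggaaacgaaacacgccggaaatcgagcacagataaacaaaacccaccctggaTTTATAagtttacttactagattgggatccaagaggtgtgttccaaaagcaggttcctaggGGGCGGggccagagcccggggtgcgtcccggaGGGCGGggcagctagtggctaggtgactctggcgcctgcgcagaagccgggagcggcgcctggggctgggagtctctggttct
Crybb1: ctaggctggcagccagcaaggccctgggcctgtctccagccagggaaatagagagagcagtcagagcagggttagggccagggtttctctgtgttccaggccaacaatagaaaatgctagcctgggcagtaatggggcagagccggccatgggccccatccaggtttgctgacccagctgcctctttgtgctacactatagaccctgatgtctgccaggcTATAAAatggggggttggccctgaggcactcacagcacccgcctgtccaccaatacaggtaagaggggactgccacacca
Fcrls: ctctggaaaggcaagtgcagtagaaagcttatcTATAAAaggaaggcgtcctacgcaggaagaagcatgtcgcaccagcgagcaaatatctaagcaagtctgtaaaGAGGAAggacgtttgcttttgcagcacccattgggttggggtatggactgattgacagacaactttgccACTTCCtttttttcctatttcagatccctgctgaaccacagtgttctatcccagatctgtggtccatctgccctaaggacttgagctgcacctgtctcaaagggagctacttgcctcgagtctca
Siglech: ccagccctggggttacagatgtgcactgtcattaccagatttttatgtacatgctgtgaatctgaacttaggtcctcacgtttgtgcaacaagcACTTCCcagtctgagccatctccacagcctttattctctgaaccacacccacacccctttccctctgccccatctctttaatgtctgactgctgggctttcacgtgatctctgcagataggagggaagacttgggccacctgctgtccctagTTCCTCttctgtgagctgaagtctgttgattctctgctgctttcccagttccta
The promoter of Crybb1 holds TATAAA on its own strand at position -30 from the start site, and that of Lpcat2 holds GGGCGG at positions -65 and -33. Those of Fcrls and Siglech each hold GAGGAA and GGAAGT, at -144 and -75 in Fcrls and at -4 and -156 in Siglech. These Fcrls matches lie inside the gene bounds given for Fcrls below, as its RefSeq start does. The Lpcat2 and Crybb1 windows hold neither motif. The motifs did not divide the members by their values, since Golm1, higher in both cKO libraries, holds GGAAGT at -27, and Olfml3, whose groups overlapped, holds neither. Among the 8 windows, GAGGAA was found in 3, GGAAGT in 4, GGGCGG in 3 and TATAAA in 4, against 28.3%, 23.8%, 35.7% and 13.6% of the 32851 RefSeq promoters of this length. The interferon-stimulated response element and the SMAD palindrome GTCTAGAC, also searched on both strands, were found in 0 of the 8, against 3.44% and 0.213% of all promoters. The motifs were chosen after the expression values were seen, and a match describes letters only.

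In WT microglia the members spanned a wide range of levels on the FPKM scale, which corrects for gene length. Fcrls led with 2266 ± 219.1 FPKM (SD, n = 2) and ranked 16 to 20 among all 21044 genes in the 4 libraries. Below it Tmem119 at 196 ± 46.6, Lpcat2 at 165 ± 30.8, Siglech at 152 ± 28.4, Olfml3 at 149.6 ± 5.42 and Sparc at 146 ± 16.7 FPKM (SD, n = 2) formed a group in which each gene overlapped the next. Golm1 followed at 115 ± 3.92, Crybb1 at 72.2 ± 4.76, Selplg at 52.4 ± 5.99 and Ltc4s at 11.1 ± 0.998 FPKM (SD, n = 2), each apart from its neighbours in both libraries. In cKO the order kept Fcrls, Tmem119 and Lpcat2 at the top and Ltc4s at the bottom, with 2385 ± 34.3, 426.5 ± 130.2, 319.3 ± 78.8 and 8.48 ± 0.856 FPKM (SD, n = 2). Sparc, at 178.5 ± 12.7 FPKM (SD, n = 2), came next in cKO and overlapped Siglech, while Golm1, Crybb1 and Selplg overlapped one another in turn.

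**Figure D1:**
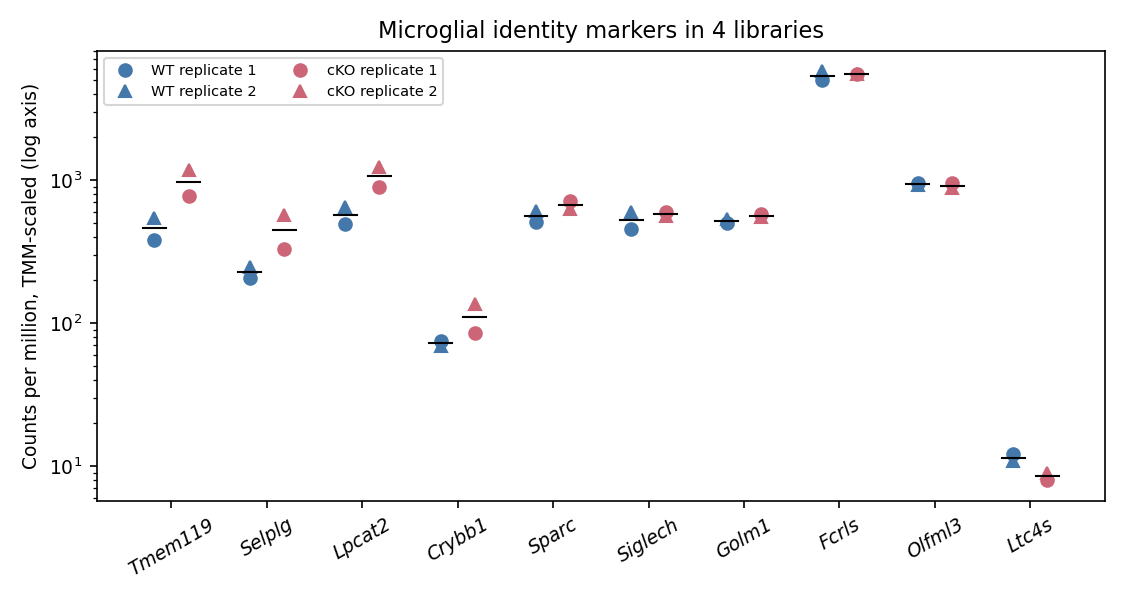
TMM-scaled CPM (log axis) of the 10 members in each library, circles for replicate 1 and triangles for replicate 2, blue for WT and red for cKO, with the mean of each group as a black line (n = 2). Tmem119, Selplg and Lpcat2 have both cKO points above both WT points, with the highest value in cKO replicate 2, and Fcrls and Olfml3 have overlapping points.

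Of the surface markers, Tmem119, a transmembrane protein used to tell microglia from infiltrating myeloid cells, differed most between the groups. Tmem119 (ENSMUSG00000054675, chromosome 5, 113793729 to 113800516 on the minus strand, GRCm38, protein-coding) was at 381 and 541 CPM in the WT libraries and at 773 and 1172 CPM in the cKO libraries. All cKO values lay above all WT values, and the difference between the group means exceeded that between the replicates of either group, which was 1.42-fold in WT and 1.52-fold in cKO. Its fitted log2 fold change was 1.08 (standard error 0.29) with an unadjusted 95% interval of 0.31 to 1.85, a 2.11-fold difference that did not pass edgeR's quasi-likelihood test over all 13086 genes (adjusted p = 0.9997). Without cKO replicate 2 the log2 fold change was 0.74, and without WT replicate 1 it was 0.82. Between the isolates, fewer cells of a type and less RNA per cell cannot be told apart.

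Selplg, the P-selectin glycoprotein ligand of leukocytes, followed the same order of libraries. Selplg (ENSMUSG00000048163, chromosome 5, 113818536 to 113832644, minus strand) was at 208 and 247 CPM in WT and at 328 and 574 CPM in cKO. The groups did not overlap, but the replicates of cKO differed by 1.75-fold, with cKO replicate 2 the higher. The log2 fold change was 0.99 (standard error 0.32, edgeR adjusted p = 0.9997), and 0.52 without cKO replicate 2. Neutrophils and monocytes also carry this ligand. Their 12 markers, all with counts in at least 1 library, summed to 50.3 and 24.8 CPM in WT. The sum was 42.3 CPM in cKO replicate 1 and 201 CPM in cKO replicate 2. Ly6g was at 0 in WT and in cKO replicate 1. DESeq2 called 2 of these markers, Mmp8, at 0 in both cKO libraries, and Ngp, which was at 0 and 0.341 CPM in WT and at 2.203 and 41.7 CPM in cKO. Ltf was at 42.1 CPM in cKO replicate 2 and at 0 to 1.23 CPM elsewhere. The part of such cells in the Selplg counts was not tested.

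Siglech and Fcrls, the other surface and Fc receptor-like markers, gave overlapping groups. Siglech (ENSMUSG00000051504, chromosome 7, 55768178 to 55778925, plus strand), which signals through the adaptor DAP12 encoded by Tyrobp, was at 452 and 596 CPM in WT and at 599.6 and 562 CPM in cKO. The WT replicates differed by 1.32-fold, more than the group means, and the log2 fold change was 0.15 with an unadjusted 95% interval of -0.36 to 0.65. Plasmacytoid dendritic cells also carry Siglech, and 7 of their 10 listed markers had counts. These summed to 280 to 393 CPM in WT and 497 to 540.4 CPM in cKO, nearly all from Tcf4 and Bst2. Ccr9 was at 0 in 3 libraries and at 1.73 CPM in cKO replicate 1. Of the 6 tested, 4 were fitted higher and 2 lower in cKO, where 48.2% of all genes were fitted higher. Both cKO libraries lay above both WT libraries for 3 and below for 0, against 15.8% and 20.0% of all genes. The part of these cells in the Siglech counts was not tested. Fcrls (ENSMUSG00000015852, chromosome 3, 87250758 to 87263738, minus strand) was at 4982 and 5775 CPM in WT and at 5502 and 5490.0 CPM in cKO, so that both cKO values lay between the WT values. Its log2 fold change was 0.03 with an interval of -0.32 to 0.38, and the direction turned to -0.092 without WT replicate 1, as that of Siglech turned to -0.057.

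Of the lipid enzymes, Lpcat2, which makes platelet-activating factor and remodels phospholipids, lay higher in cKO. Lpcat2 (ENSMUSG00000033192, chromosome 8, 92855339 to 92919279, plus strand) was at 491 and 647 CPM in WT and at 892 and 1241 CPM in cKO. The groups did not overlap, and the replicates differed by 1.32-fold in WT and 1.39-fold in cKO. The log2 fold change was 0.91 (standard error 0.24, unadjusted 95% interval 0.26 to 1.55, edgeR adjusted p = 0.9997), and it was 0.65 without cKO replicate 2. Lpcat2 shares 287 bp of exon sequence with the antisense gene Gm45472, which had 190 counts over all libraries against 7700 to 18609 per library for Lpcat2, and the strand setting of the counting is not given.

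Ltc4s, the synthase of leukotriene C4, was the lowest member and the one whose cKO libraries both lay below WT. Ltc4s (ENSMUSG00000020377, chromosome 11, 50236461 to 50238616, minus strand) had 190 and 158 counts in WT and 134 and 135 in cKO, or 12.1 and 10.8 CPM against 7.98 and 9.001 CPM. Counting error alone allowed up to 18.4% on such a count at the 95% level. The log2 fold change was -0.43 (standard error 0.58) with an unadjusted interval of -1.95 to 1.09, so a difference of this size was not detectable here. Its exons share 268 bp with the antisense gene Gm26542, which had 264 counts over all libraries. Gm26542 was at 0.702 and 2.59 CPM in WT and at 3.75 and 10.1 CPM in cKO, opposite in direction to Ltc4s. Reads of the pair cannot be told apart without strand. Mast cells also express Ltc4s, and 4 of their 10 listed markers had counts, summing to 6.38 and 8.67 CPM in WT and to 5.002 and 3.80 CPM in cKO. Cpa3 was at 0 in WT replicate 1 and in both cKO libraries.

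Of the secreted markers, Sparc, a matricellular glycoprotein, had cKO values above WT by a small margin, and Olfml3, an olfactomedin-domain protein, had overlapping values. Sparc (ENSMUSG00000018593, chromosome 11, 55394500 to 55423183, minus strand) was at 513 and 609 CPM in WT and at 709 and 627 CPM in cKO, with cKO replicate 1 the highest. Its log2 fold change of 0.25 (standard error 0.17) was as large as the difference of 0.25 between the WT replicates. Sparc is also made by endothelial cells, pericytes and fibroblasts. Of the 10 endothelial markers 8 had counts, summing to 23.9 to 25.5 CPM in WT and 27.5 to 33.6 CPM in cKO, with Cldn5, Flt1, Kdr, Esam and Slco1a4 at 0 in cKO replicate 2 and Pecam1 at 9.44 and 6.01 CPM in WT and 10.5 and 21.6 CPM in cKO. Of the 12 pericyte and fibroblast markers 9 had counts, with sums of 8.87 to 10.7 CPM in WT and 6.73 to 18.5 CPM in cKO, Pdgfrb at 0 in all libraries but WT replicate 2, and Acta2 at 0.446 and 0.819 CPM in WT and 5.48 and 5.47 CPM in cKO. The part of these cells in the Sparc counts was not tested. Olfml3 (ENSMUSG00000027848, chromosome 3, 103722222 to 103738001, minus strand) was at 956 and 918 CPM in WT and at 953 and 877 CPM in cKO. Its log2 fold change was -0.034 with an unadjusted interval of -0.40 to 0.33, and the sign turned to 0.0080 when library totals replaced the TMM factors.

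Crybb1, a beta-crystallin known from the lens and from immature microglia, had a wide spread in cKO. Crybb1 (ENSMUSG00000029343, chromosome 5, 112255815 to 112269585, plus strand) was at 75.3 and 69.3 CPM in WT and at 84.7 and 136 CPM in cKO. The cKO replicates differed by 1.60-fold, more than the group means, and the fitted log2 fold change was 0.61 (standard error 0.30), or 0.23 without cKO replicate 2. Golm1 (ENSMUSG00000021556, chromosome 13, 59634626 to 59675811, minus strand), a Golgi membrane protein, was at 502 and 532 CPM in WT and at 579 and 551 CPM in cKO. Its groups did not overlap, yet the log2 fold change was only 0.13 with an interval of -0.25 to 0.50. Golm1 shares 1297 bp of exon sequence with Naa35 on the other strand, which had 9361 counts over all libraries against 7794 to 9715 per library for Golm1.

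Both cKO libraries lay above both WT libraries for 6 of the 10 members, where this held for 15.8% of all 13086 genes tested and for 17.8% of those averaging 100 CPM or more, and below for 1 member, Ltc4s, where it held for 20.0% of either. With cKO replicate 1 alone against both WT libraries, 7 members lay above and 1 below, against 36.04% and 36.96% of all genes. Markers of astrocytes and oligodendrocytes were fitted higher as well, 12 of 12 and 8 of 8 of those tested, and 9 and 7 of them lay above both WT libraries in cKO replicate 1 alone. None passed edgeR. The astrocyte list summed to 192 to 239.8 CPM in WT and 265 to 549 CPM in cKO, and the oligodendrocyte list to 119 to 123 CPM in WT and 167 to 229.9 CPM in cKO, where Mog and Myrf were at 0. Their part in the members' values was not tested. The fit placed 8 members higher in cKO, against 48.2% of all genes, and the median log2 fold change was 0.20 over the 10 members and -0.03 over all genes tested. By edgeR 0 members passed at an adjusted threshold of 0.05, as did 0.0% of all genes, where 608 genes (4.65%) were under it before adjustment, Tmem119, Selplg and Lpcat2 among them. DESeq2 called 0 members and 52 genes (0.387%), with adjusted p = 0.0602 for Tmem119, 0.0913 for Lpcat2 and 0.199 for Selplg. When cKO replicate 1 was left out, edgeR called Tmem119, Selplg and Lpcat2 higher, with adjusted p = 0.0428, 0.0296 and 0.0428. That fit rests on cKO replicate 2 alone, whose variance is taken from the WT pair, and called 910 genes (6.26%), of which 171 higher (1.18%) and 739 lower, with a median log2 fold change of -0.20 over all genes. With 2 libraries against 2, an exact two-sided permutation test of a single gene cannot go below p = 0.333.

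**Figure D2:**
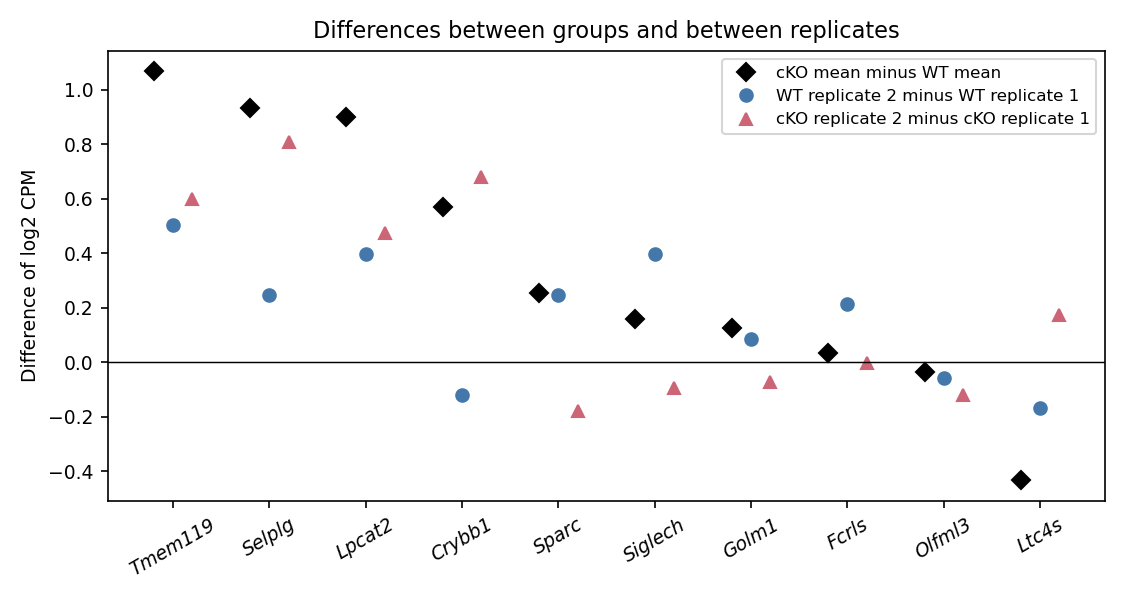
Differences of log2 CPM for each member, between the group means (black diamonds), between the WT replicates (blue circles) and between the cKO replicates (red triangles). In size, the difference between groups is the largest of the 3 for Tmem119, Selplg, Lpcat2, Ltc4s, Golm1 and, narrowly, Sparc. For Crybb1, Siglech, Fcrls and Olfml3 a difference between replicates is larger.

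**Figure D3:**
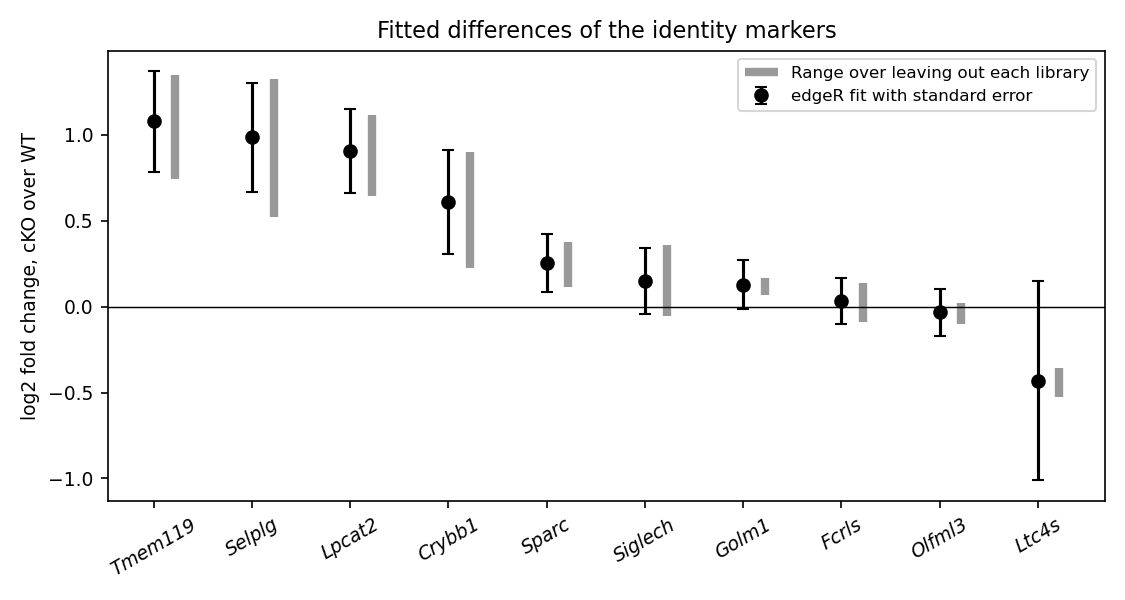
Fitted log2 fold change of each member, cKO over WT, from edgeR (points, with standard errors) and its range over the 4 fits that leave out 1 library (grey bars). The grey bars of Tmem119, Selplg, Lpcat2, Crybb1, Sparc and Golm1 stay above 0, that of Ltc4s stays below, and those of Siglech, Fcrls and Olfml3 cross 0.

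The authors' deposited tables, which each compare 1 cKO with 1 WT library, called no member in all 4, where 2.25% of genes were called higher and 5.22% lower in all of them. A call there means a 2-fold difference at p under 0.05, a rule that gave the deposited call for every gene of each table. In the authors' deposited tables Tmem119 was called higher against both WT libraries for cKO replicate 2 and against WT replicate 1 for cKO replicate 1, with fold changes of 3.19, 2.27 and 2.06. The 4th value, cKO replicate 1 over WT replicate 2, was 1.46 in the authors' deposited table. Selplg and Lpcat2 were called higher only for cKO replicate 2, with fold changes of 2.86 and 2.43 for Selplg and 2.62 and 2.01 for Lpcat2 in the authors' deposited tables. Crybb1 was called higher in 1 of the authors' deposited tables, at 2.05-fold for cKO replicate 2 over WT replicate 2. The share of all genes called higher was 20.3% and 17.2% for cKO replicate 1 and 18.1% and 17.1% for cKO replicate 2, over WT replicates 1 and 2, in the authors' deposited tables. The authors' deposited tables called no member lower, where the shares of all genes in the same order were 15.8%, 17.6%, 28.7% and 31.7%. Each library stands in 2 of these tables, so their calls are not independent.

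The make-up of the marker pool, which needs no scaling between libraries, differed mainly in the same genes. All 10 members took 0.848% and 0.973% of the WT libraries and 1.04% and 1.15% of the cKO libraries. Tmem119 made up 4.44% and 5.44% of the members' counts in WT and 7.41% and 10.4% in cKO, while Fcrls made up 58.1% in both WT libraries and 52.8% and 48.8% in cKO. Tmem119 counts stood to Siglech counts as 0.842 and 0.907 in WT and as 1.29 and 2.09 in cKO. The ratio of Lpcat2 to Olfml3 was 0.514 and 0.705 in WT and 0.936 and 1.41 in cKO. Each pair sets a member that lay higher in both cKO libraries over one whose groups overlapped. The ratios therefore repeat those values and are no further evidence. Lpcat2 made up 5.73% and 6.51% of the members' counts in WT and 8.55% and 11.0% in cKO. Shares of a pool depend on each other, so higher shares of Tmem119 and Lpcat2 lower that of Fcrls, whose CPM values overlapped. The shares restate the same counts and are no further evidence either.

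**Figure D4:**
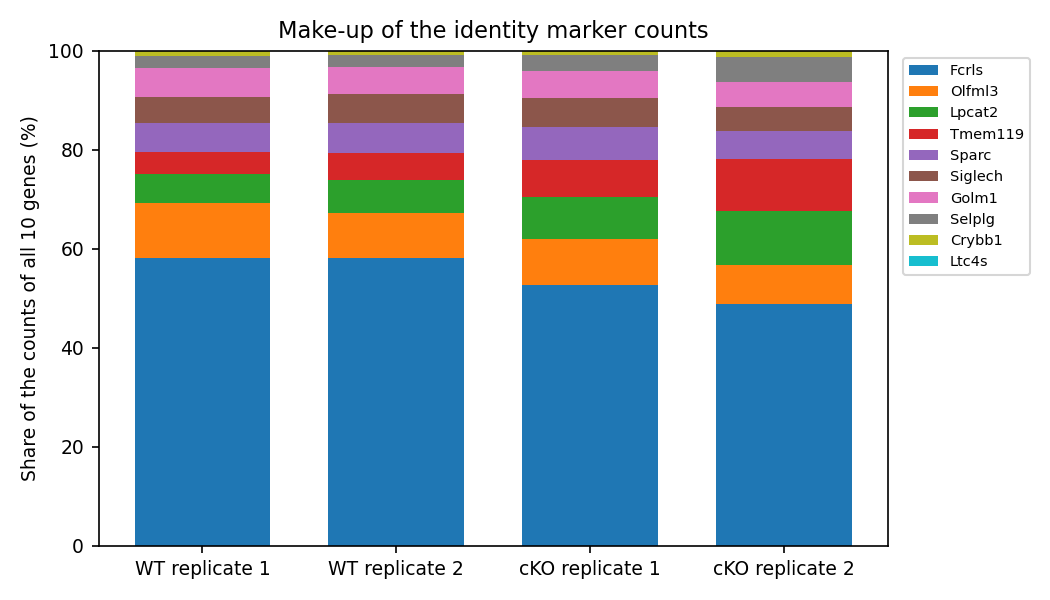
Share of the summed counts of the 10 members taken by each gene, per library, as stacked bars from 0 to 100%. The Fcrls share is lower and the Tmem119, Lpcat2 and Selplg shares are higher in the cKO libraries, and Ltc4s, at 0.0765% to 0.141%, is too small to see.

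The members lie on 6 chromosomes, and some are close neighbours. Tmem119 and Selplg are 18019 bp apart on chromosome 5, on the same strand, with no other gene with counts between them. The genes on either side, Iscu, an iron-sulfur cluster scaffold, and Coro1c, a coronin, had log2 fold changes of -0.11 and -0.017 with overlapping groups, against 1.08 and 0.99 for the pair. Crybb1 lies 3296 bp from another crystallin gene, Cryba4, on the opposite strand, which was at 58.5 and 54.1 CPM in WT and at 78.6 and 98.7 CPM in cKO. Its groups did not overlap, and its log2 fold change was 0.66 (standard error 0.25), or 0.48 without cKO replicate 2. On the other side Tpst2, 7105 bp away, had a log2 fold change of 0.06. Within 50000 bp of a member, 5 of 21 tested genes lay above WT in both cKO libraries and 1 lay below, against 15.8% and 20.0% of all genes. With cKO replicate 1 alone against both WT libraries, 8 lay above and 6 below, against 36.04% and 36.96% of all genes. The window was chosen after the data were examined.

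Each member was set beside a list of its pathway or family. By edgeR 0 of all 13086 genes passed, and even Lag3 did not. A count of 0 passing therefore cannot tell whether a list changed. Of 15 leukotriene and eicosanoid genes with counts, 14 were tested and 0 passed edgeR in either direction. The prostaglandin D synthase gene Hpgds was at 1125 and 1081 CPM in WT and at 1141 and 1101 CPM in cKO, and Ptgs1, which encodes cyclooxygenase-1, had a log2 fold change of 0.53 (standard error 0.18). Of 12 tested genes of platelet-activating factor and lysophospholipid remodelling, 0 passed, 0 lay above and 3 below WT in both cKO libraries, against 15.8% and 20.0% of all genes. With cKO replicate 1 alone, 3 lay above and 4 below, against 36.04% and 36.96%. The receptor of platelet-activating factor, Ptafr, was at 358 and 352 CPM in WT and at 282 and 241 CPM in cKO, while the lysosomal phospholipase gene Pla2g15 had overlapping groups. The values of Ptafr thus lay on the other side of WT from those of Lpcat2, the gene of an enzyme that makes the ligand of this receptor.

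Of 14 tested selectin partners and glycosylation genes beside Selplg, 0 passed, with a median log2 fold change of 0.11. Tpst2, a tyrosine sulfotransferase, and Msn, which encodes moesin, had log2 fold changes of 0.06 and 0.08. Of 12 tested Siglecs and adaptors 0 passed, with values of -0.16 for Cd33 and -0.12 for the phosphatase gene Ptpn6. Of 7 tested Fc receptor genes beside Fcrls 0 passed, with values of 0.25 for Fcgr3 and 0.13 for the shared chain Fcer1g. In the list of Sparc relatives and matrix proteins, 9 were tested and 0 passed. Spp1, osteopontin, was at 41716 and 34930 CPM in WT and at 25492 and 23018 CPM in cKO, and Sparcl1 had a log2 fold change of 1.13 (standard error 0.49) at a low level, or 0.59 without cKO replicate 2. Astrocytes, whose marker sums are given above, express Sparcl1. Of their markers Gjb6 was at 0 in both cKO libraries and S100b in cKO replicate 2. The part of astrocyte RNA in the Sparcl1 counts was not tested.

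Of 5 tested olfactomedin-domain genes 0 passed and 4 lay above WT in both cKO libraries, against 15.8% of all genes. The most abundant were Adgrl2 and Olfml2b, with log2 fold changes of 0.73 and 0.79, or 1.07 and 0.75 without cKO replicate 2. The others above WT, Adgrl3 and Olfm4, had few counts. Adgrl3 had 8 and 0 in WT and 15 and 136 in cKO, and Olfm4 had 31 and 14 in WT and 113 and 66 in cKO. With cKO replicate 1 alone, 5 lay above and 0 below, against 36.04% and 36.96% of all genes. Of 5 tested crystallins 0 passed, and Cryz, a quinone oxidoreductase, had a log2 fold change of 0.15. Of 14 tested Golgi genes 0 passed and the median was 0.013, with -0.028 for Tgoln1 and 0.05 for Mgat1. Of 8 tested genes set beside Tmem119, 0 passed, with 0.26 for Smad5 and 0.09 for Bmpr2, both of the BMP pathway that Tmem119 is known for in bone. Of the leukotriene genes 3 lay above and 2 below WT in both cKO libraries, against 15.8% and 20.0% of all genes. The counts were 4 and 3 in the selectin list and 1 and 3 in the Siglec list. They were 3 and 0 for Fc receptors and 2 and 2 for Sparc relatives. For crystallins, Golgi genes and the Tmem119 list they were 2 and 0, 2 and 3, and 3 and 0.

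The other homeostatic microglial genes lay on both sides of 0. Of 36 such genes, all tested, 0 passed edgeR, as did 0.0% of all genes. Of the 36, 8 lay above and 5 below WT in both cKO libraries, against 15.8% and 20.0% of all genes. With cKO replicate 1 alone, 15 lay above and 10 below, against 36.04% and 36.96%. Their median was 0.06 on the log2 scale, against 0.20 for the members and -0.03 for all genes. Csf1r, the receptor for colony-stimulating factor, was at 7803 and 9026 CPM in WT and at 8997 and 7428 CPM in cKO. The complement genes C1qa and C1qb had log2 fold changes of 0.17 and 0.0032, and Lgmn, the lysosomal protease legumain, one of 0.40, with 12230.0 CPM in cKO replicate 2 and 7265 to 7397 CPM elsewhere. Without cKO replicate 2 the value of Lgmn was -0.029. P2ry12, the ADP receptor, was at 1654 and 2773 CPM in WT and at 2831 and 3382 CPM in cKO. Cx3cr1, the fractalkine receptor gene, whose locus is widely used to drive Cre in microglia, was at 6443 and 6554 CPM in WT and at 3404 and 3034 CPM in cKO and fell by DESeq2, with adjusted p = 4.08e-05, but not by edgeR.

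**Figure D5:**
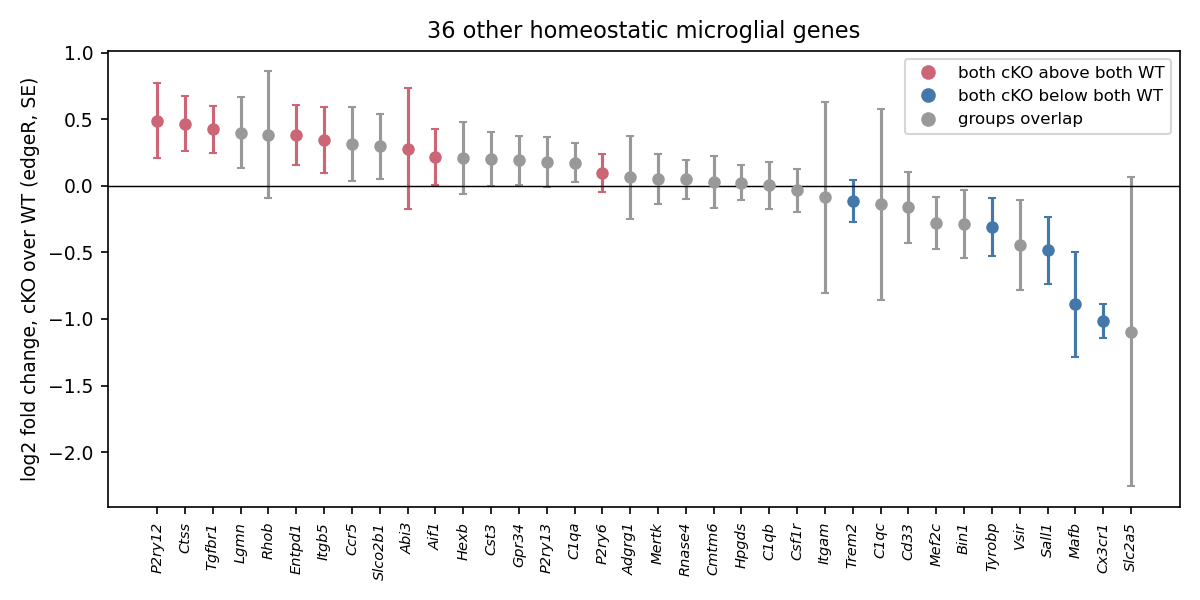
Log2 fold change, cKO over WT, of the 36 other homeostatic microglial genes from edgeR with standard errors, red where both cKO libraries lay above both WT libraries (8 genes), blue where both lay below (5 genes) and grey where the groups overlapped. P2ry12 is the highest at 0.49, and Slc2a5 and Cx3cr1 are the lowest.

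The genes most like Tmem119 over the 4 libraries, by the root mean square difference of centred log2 CPM over 9037 genes with a mean CPM of 5 or more, were Rbmx, Txnrd1, Cenpe, Mier3 and Twistnb, with differences of 0.065 to 0.0748. Rbmx, an RNA-binding protein gene, was at 47.7 and 71.2 CPM in WT and at 95.9 and 136 CPM in cKO. Cenpe, a kinetochore motor gene, was at 68.2 and 99.0 CPM in WT and at 128 and 223 CPM in cKO. Of the members, Lpcat2 stood 13th and Selplg 32nd in this order, with differences of 0.102 and 0.135. Crybb1 followed at rank 458, the other 6 ranked between 1727 and 5660, with Ltc4s last. With 4 libraries such an order describes these libraries only.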

How the data were processed

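RNA-seq of total RNA from callosal microglia gave 4 libraries in 2 genotype groups. The submitters' processing notes name the build mm9, HTSeq 0.6.0, TopHat2 2.0.12 and Bowtie2 2.2.3, and give no settings, strand or annotation. The gene positions in the files were the same as in GENCODE M21 (GRCm38) for 92.1% of 21008 shared genes, all members included, so GRCm38 is used for positions. For 21044 genes FPKM values were deposited. Read counts per gene stand in 4 deposited tables, which, per the file headers, also hold a fold change (a ratio), the log2 of it, a p-value and an adjusted p-value, from a test not given in the sources used here. The gene lengths implied by the deposited FPKM and counts were those of the GENCODE exon unions within 1 bp for the members.

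Counts were joined for 18459 genes. The tables holding the same library had 0 genes with different counts, and 4315 of 73836 cells, none of a member, were recovered from FPKM, every one whole within 1e-06. Replicates differed by more than sampling noise (chi-square per degree of freedom of 27.8 in WT and 107.5 in cKO). The test was edgeR 4.0.16 in R 4.3.3 with TMM, filterByExpr and the quasi-likelihood F test, with Benjamini-Hochberg adjustment over 13086 genes and a threshold of 0.05. Standard errors came from the F statistic and 95% intervals, not adjusted, from its degrees of freedom. Alternatives were DESeq2 1.42.0, limma 3.58.1 on log2(FPKM + 1), other pseudocounts, scalings and filters, a replicate block and leaving out each library. The scripts were tested on simulated data.

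The members, lists and motifs were chosen with earlier results of these data known. Named genes are the members, Lag3, the 6 most abundant homeostatic genes, the 2 most abundant of each other list, and the 5 genes most like Tmem119. Iscu, Coro1c and the antisense or overlapping genes were added for their position, and other cell types' markers and sex-linked genes as checks. Slc2a5 is named for its place in a plot. Counting limits cover counting error only.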

Additional observations from a re-analysis of the deposited data

How the results depend on the processing

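No member was called under 9 alternatives with all 4 libraries (2 scalings, 2 filters and a block in edgeR, DESeq2, and limma with 3 pseudocounts), and DESeq2 called 52 genes where edgeR called 0. Leaving out each library gave 0 to 910 genes and 0 to 3 members called, the highest in both cases without cKO replicate 1. The median log2 fold change ranged from 0.090 to 0.37 for the members and from 0.0011 to 0.18 for the other homeostatic genes over leaving out each library, the highest without WT replicate 2 for both. The labels give the replicate number no shared origin, and deviations of libraries with the same number were uncorrelated over genes (-0.0012). A fit with the replicate block called 0 genes and 0 members. The fit without it called 0 as well, so these counts cannot tell whether the block matters. Olfml3 turned to 0.0080 with library totals and to 0.0068, 0.0069 and 0.0069 with limma at pseudocounts of 1, 0.1 and 0.5. Leaving out each library, Olfml3 ranged from -0.10 to 0.022, Fcrls from -0.092 to 0.14 and Siglech from -0.057 to 0.36. Olfml3 turned without cKO replicate 2, and Fcrls and Siglech without WT replicate 1. The cause was not tested. The fitted direction of the other 7 members held under all 13 alternatives. Of the genes named beside the members, Csf1r, C1qb, Lgmn, Pla2g15, Tpst2, Msn, Cd33, Fcgr3, Fcer1g and Bmpr2 changed sign without cKO replicate 2, to between -0.17 (Fcer1g) and 0.11 (Cd33), a setting chosen for them after seeing the data. The order of the members by mean FPKM was the same in TPM and in counts per kb. Within a library these scales differ by a constant at the same gene lengths, so the order could hardly change. A stricter adjusted p of 0.001 left 0 members called in all of the authors' deposited tables. As no member reached a 2-fold difference in all of them, a stricter p could not change that count. Depth limited the precision most for Ltc4s, with 134 to 190 counts, and least for Fcrls.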
